A study of Mus musculus with 6 samples.

Results

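The messenger RNA of 10 genes that make or remove reactive oxygen species was followed in cultured CD31-positive cells from mouse liver. They are the NADPH oxidase genes Nox4 and Cyba, the superoxide dismutases Sod1, Sod2 and Sod3, the catalase gene Cat, the glutathione peroxidases Gpx1 and Gpx4, and the peroxiredoxins Prdx1 and Prdx2. The genes are grouped by these roles, were chosen with earlier results of these data known, and were found by symbol in the deposited expression table, where all 10 were present among 13595 genes. Of the 10, 7 differed between libraries labelled female and libraries labelled male (limma adjusted p under 0.05), a share close to the 69.3% of all tested genes that did. Nox4 was 2.59-fold, Gpx1 1.71-fold, Prdx1 1.45-fold and Sod1 1.27-fold higher in the libraries labelled female. Sod3 was 28.7-fold lower there, and Sod2 and Cat were at 73.2% and 86.1% of the level in the libraries labelled male.

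An oxidase of the NOX family passes electrons from NADPH to oxygen, and superoxide or hydrogen peroxide is formed. The dismutases turn superoxide into hydrogen peroxide, and catalase, glutathione peroxidases and peroxiredoxins then reduce the peroxide. In endothelium, superoxide also reacts with nitric oxide, so the place where a dismutase sits, in the cytosol, the mitochondria or outside the cell, is part of its function.

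The cells were primary cultures of CD31-positive cells, selected by an endothelial surface marker, from livers of C57BL6/J mice aged 4 weeks. Every one of the 6 libraries was made after exposure to 100 µM indoxyl sulfate, a uraemic solute and aryl hydrocarbon receptor agonist, together with 6 h of hypoxia and nutrient deprivation. The only labelled difference was sex, with 3 libraries labelled male and 3 labelled female, each numbered 4, 5 and 6. A vehicle control without indoxyl sulfate belongs to the study's plan and was not analysed here, so no value below is a response to the treatment. Nothing in the labels says whether the numbers stand for mice, isolations or culture wells, and the p-values therefore measure the spread between these samples, which may be technical. The reads recovered from the normalized values, summed over the genes of the deposited table, came to between 22303270 and 31189363 per library. Reads outside these genes are not in that number. A normalized read count of between 0.106 and 0.142 corresponds to 3 reads.

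The labels did not match every sex-linked transcript. Xist, which is transcribed from the inactive X chromosome, was at 324, 234 and 301 in the libraries labelled female and at 0.124, 0.458 and 0.388 in those labelled male. The Y-linked gene Ddx3y was at 50.2, 48.5 and 57.7 in the libraries labelled female and at 47.2, 76.3 and 47.4 in those labelled male. Eif2s3y, also Y-linked, was at 29.4, 29.8 and 30.2 against 55.3, 61.2 and 57.8. Because each of the 3 libraries labelled female carried Y-linked transcripts, no comparison without them could be made, and every direction below is between labels. Whether these libraries hold mixed or mislabelled material was not tested, so a difference below cannot be read as one between the sexes. Male 4 also stood apart from its group. In a comparison of recovered reads gene by gene, it differed from male 5 and male 6 with a chi-square per gene of 43.6 and 45.4, against 5.98 between male 5 and male 6 and 4.35 to 9.59 among the libraries labelled female. Without male 4 the fit again called 4 of the 10 genes higher and 3 lower.

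The selected cell type was checked on its markers, and the counts of markers called are to be read against the 34.6% of all tested genes called higher and the 34.6% called lower. Pecam1, which encodes CD31, was at 405, 391 and 423 under the male label and at 73.5, 73.8 and 74.5 under the female label. Cdh5, encoding the endothelial junction protein VE-cadherin, was at 925, 918 and 929 against 392, 397 and 374. Acta2, the smooth muscle actin gene, went the other way, from 134, 56.4 and 45.9 to 1887, 1682 and 1513. The leukocyte gene Ptprc was at 0 in all libraries labelled male and at 0.332, 0.221 and 0.142 in the others, and Alb, the albumin gene of hepatocytes, stayed at or below 0.6 in every library. Of 20 endothelial markers 17 were tested, of which 14 were lower and 2 higher in the libraries labelled female, and their summed level was 2476 to 2581 under the male label and 1308 to 1374 in the others. The 10 markers of sinusoidal endothelium, 4 of them tested, summed to 503 to 539.6 against 42.1 to 44.8, and 5 of the 10 were under 1 in every library. Of the 4 tested, 3 were lower and 1 was higher. Lyve1, a hyaluronan receptor gene, made up most of that sum, at 469.7, 513 and 513 against 5.10, 5.48 and 4.37, while Gata4, a transcription factor gene, was higher, at 3.73, 3.85 and 3.67 against 32.9, 31.2 and 32.2. Lyve1 and Gata4 were picked after their values were seen. The 16 listed mural, stellate cell and fibroblast markers summed to 2976 to 3820.4 against 3614 to 4325, with 5 of the 15 tested higher and 9 lower. The 8 mesothelial markers summed to 118 to 121 against 430.3 to 455. Of the 7 tested, 6 were higher and 1 was lower, though some passed the filter only through the libraries labelled female. Msln, most of the sum under the female label, was higher there (means 19.4 and 332). Krt18, most of the sum under the male label, was the 1 lower (means 96.0 and 49.7). Both were picked after their values were seen. The 7 listed cholangiocyte markers summed to 1641 to 2489 against 510.5 to 613, and the 13 macrophage markers to 7.59 to 10.1 against 15.3 to 18.5. The 8 hepatocyte markers summed to 7.71 to 13.5 against 1.95 to 8.05, and single genes carried these sums. Ahsg, most of the sum under the male label, was lower under the female label (means 7.77 and 0.0147). Apob, most of the sum under the female label, was higher there (means 1.08 and 5.17). Ahsg and Apob were picked after their values were seen. The part of these differences in the results on oxidant genes was not tested.

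Changes are given as the difference of mean log2(value + 1), labelled female minus labelled male, with its standard error (SE), and the adjusted p is that of limma after Benjamini-Hochberg adjustment over 12568 tested genes. A gene is called where this p is under 0.05. The 7 of 10 calls stand against 69.3% of all tested genes. The 4 increases stand against 34.6% of genes called higher and the 3 decreases against 34.6% called lower. All 10 genes had groups that did not overlap, as had 74.1% of tested genes. A call together with a log2 change of at least 1 in size was met by 2 of the 10, Nox4 and Sod3, and by 20.6% of tested genes. The median size of the change was 0.40 among the 10 genes and 0.46 among all tested genes. The share of calls was thus close to the background, and what differed among the genes was which of them rose, which fell and by how much.

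**Figure D1:**
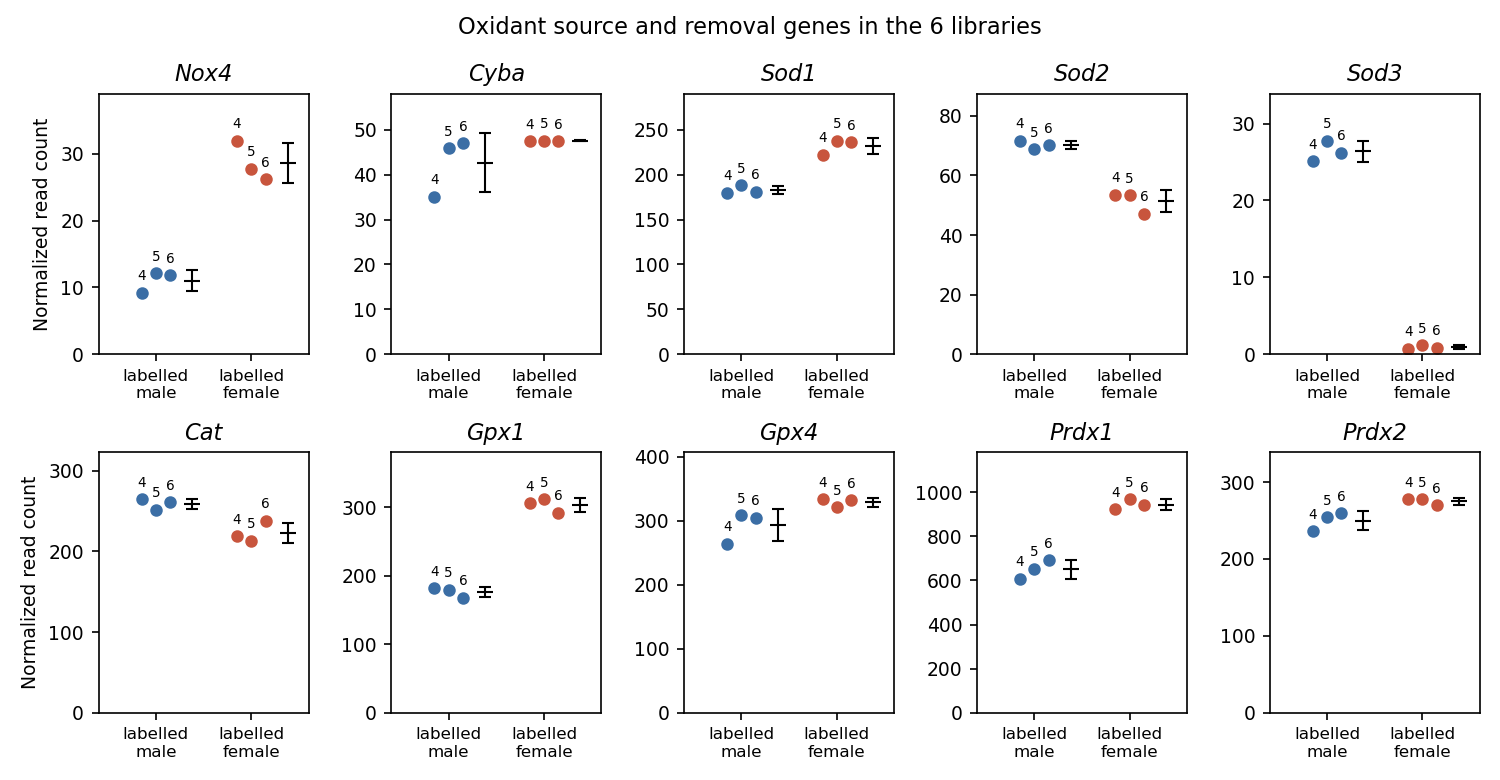
Normalized read count (vertical axis, from 0) of each gene in the 6 libraries, with the replicate number above each point and the mean ± SD (n = 3) at the right of each group. Nox4, Gpx1, Prdx1 and Sod1 lie higher and Sod3, Sod2 and Cat lower in the libraries labelled female, while male 4 is the lowest library labelled male for 7 genes and the highest for 3.

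Among the oxidant sources, Nox4 rose and its partner Cyba did not pass the test. Nox4 encodes the oxidase catalytic subunit that is abundant in endothelial and mural cells and releases mainly hydrogen peroxide. It was at 9.21, 12.1 and 11.8 in male 4, 5 and 6 and at 32.0, 27.8 and 26.2 in female 4, 5 and 6. Every library labelled female lay above every library labelled male, and the means were 11.0 ± 1.59 and 28.6 ± 2.99 (SD, n = 3). The log2 change was 1.30 (SE 0.12, limma adjusted p = 2.89e-05), and its size exceeded that of 86.5% of tested genes.

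Cyba encodes p22phox, the membrane partner that NOX4 and several other NOX subunits need. Its values were 35.1, 45.9 and 47.0 under the male label and 47.4, 47.6 and 47.4 under the female label. The groups were separated only by the step from 47.0 to 47.4, and male 4 lay well below the other 5 libraries. The log2 difference was 0.16 with a 95% interval from -0.09 to 0.41 (limma adjusted p = 0.215), and without male 4 it was 0.03. The Nox4 to Cyba ratio of normalized reads was 0.262, 0.263 and 0.252 in the libraries labelled male, male 4 included, and 0.674, 0.583 and 0.552 under the female label. The ratio was thus apart between the groups, but it compares reads of transcripts of different length and an exact permutation test of 3 against 3 cannot give a p below 0.1.

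Other NADPH oxidase parts were scarce apart from the small GTPase gene Rac1, Poldip2 and the adaptor genes Sh3pxd2a and Sh3pxd2b. Of 19 listed genes 10 were in the table and 9 were tested, with 1 higher, 5 lower and 3 not called in the libraries labelled female. The 66.7% of them called is close to the 69.3% of all tested genes. With at least 10 reads required in every library, 2 of the list were called. Sh3pxd2b, an adaptor that organises NOX complexes and podosomes, was at 231, 229 and 243 against 118, 123 and 132, a log2 change of -0.91 (SE 0.06, limma adjusted p = 4.71e-06). Cybb and Noxa1 lie outside the naming rule and were picked after their values were seen. Cybb, the catalytic subunit of the phagocyte oxidase, was at 2.03, 1.03 and 1.13 against 0.208, 0.177 and 0.332. Noxa1, an activator of NOX1, was at 2.90, 4.65 and 5.33 against 0, 0 and 0.095. Both passed the filter on low values only through the libraries labelled male, so these values are a description and no call is drawn from them.

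Oxidases outside the NOX family were counted next. Of 15 listed genes 12 were tested, and 2 were higher, 8 lower and 2 not called in the libraries labelled female, where 34.6% of all tested genes were called higher and 34.6% lower, with a median log2 change of -0.47 against 0.01 over all tested genes. Xdh, whose product xanthine oxidoreductase forms superoxide and peroxide while degrading purines, was at 312, 319 and 348 against 120, 114 and 138 (log2 change -1.39, SE 0.08, limma adjusted p = 2.02e-06). Maoa, encoding the mitochondrial monoamine oxidase A that releases peroxide, rose from 85.5, 62.3 and 63.8 to 142, 166 and 178 (log2 change 1.20, SE 0.13, limma adjusted p = 6.74e-05). Nox4 and Maoa thus rose while Xdh fell, and the groups did not overlap for any of the 3.

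The 3 superoxide dismutases each moved differently. Sod1, the copper and zinc enzyme of the cytosol, rose. The 250 bases before its transcription start, from RefSeq on GRCm38.p6 (chr16:90220512-90220761, plus strand), are shown because they hold matches to motifs of antioxidant and aryl hydrocarbon receptor signalling, with the matches in capitals.

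Sod1: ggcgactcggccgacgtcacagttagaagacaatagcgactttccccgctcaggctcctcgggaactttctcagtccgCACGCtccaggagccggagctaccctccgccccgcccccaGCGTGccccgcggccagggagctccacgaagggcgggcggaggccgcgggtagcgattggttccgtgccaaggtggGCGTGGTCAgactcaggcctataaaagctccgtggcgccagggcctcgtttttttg

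The antioxidant response element core was searched as TGACNNNGC and the aryl hydrocarbon (xenobiotic) response element core as GCGTG, on both strands. In the Sod1 window the first has 1 match, 48 to 56 bases before the start on the minus strand, and the second has 3, of which 1 overlaps it. Of all 32851 promoter windows of this length, 10.2% hold TGACNNNGC and 28.2% hold GCGTG. These matches, and those in the windows below, describe the letters of a window and are not binding sites.

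Sod1 was at 179.9, 188 and 181 under the male label and at 222, 238 and 236 under the female label. The spread within a group was a small part of the gap, with means of 183 ± 4.67 and 232 ± 8.73 (SD, n = 3). The log2 change was 0.34 (SE 0.06, limma adjusted p = 0.000766). Of its 50-base stretches, 23.1% also occur in the gene model Gm8566, so part of its reads could belong there.

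Sod2, the manganese enzyme of the mitochondrial matrix, fell from 71.7, 68.7 and 70.1 to 53.5, 53.4 and 47.2. No library labelled female reached the lowest library labelled male, and the log2 change was -0.45 (SE 0.07, limma adjusted p = 0.000568). Its size exceeded that of 49.1% of tested genes, near the middle of all changes. The Sod1 to Sod2 ratio of normalized reads was 2.51, 2.74 and 2.58 under the male label and 4.15, 4.45 and 5.01 under the female label.

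Sod3 encodes the secreted dismutase that is held by heparan sulfate at cell surfaces and in the matrix, and it had the largest change of the 10 genes. Its values were 25.1, 27.8 and 26.2 in the libraries labelled male, from 605, 729 and 741 reads. In the libraries labelled female they were 0.706, 1.19 and 0.855, from 17, 27 and 18 reads. The highest library labelled female was thus far below the lowest library labelled male, and the group mean was 3.48% of the other. The log2 change was -3.84 (SE 0.12, 95% interval -4.12 to -3.56, limma adjusted p = 8.61e-08), beyond that of 99.3% of tested genes. Adding 1 to each value understates this change. Over the other normalizations, filters, pseudocount and tools it ran from -4.86 to -3.80, and with 1 library left out from -3.94 to -3.76. In a bulk library, fewer cells that express Sod3 and less Sod3 RNA per cell cannot be told apart. Several marker lists moved with it: 14 of 17 tested endothelial markers, 9 of 15 mural, stellate cell and fibroblast markers and 4 of 5 cholangiocyte markers were also lower in the libraries labelled female, where 34.6% of all tested genes were called lower. The summed mesothelial markers went the other way. Among the 9 lower mural, stellate cell and fibroblast markers were Pdgfrb, a receptor gene of pericytes and fibroblasts, with a log2 change of -3.13, and the fibrillar collagen gene Col3a1 with -2.47, both picked after their values were seen, while the contractile gene Acta2 had 4.57. Their part in the Sod3 result was not tested.

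**Figure D2:**
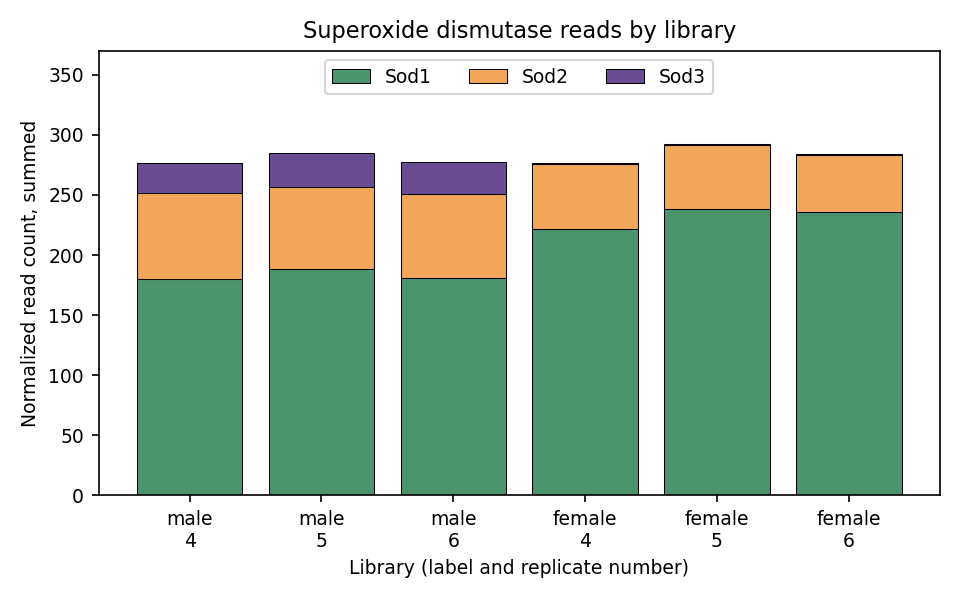
Summed normalized read count (vertical axis, from 0) of Sod1, Sod2 and Sod3 in each library, as stacked bars. The sum is 277, 285 and 277 under the male label and 276, 292 and 285 under the female label, while the Sod3 segment is 0.706 to 1.19 in the latter.

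The summed reads of the 3 dismutases did not separate the groups, with means of 279.6 ± 4.66 and 284 ± 8.09 (SD, n = 3), and their ranges overlapped. Without regard to transcript length, Sod1 made up 65.5% ± 0.578 of these reads under the male label and 81.6% ± 1.38 under the female label (SD, n = 3). Sod2 went from 25.1% ± 0.908 to 18.1% ± 1.39 and Sod3 from 9.42% ± 0.343 to 0.321% ± 0.0785 (SD, n = 3). Divided by the length of the longest coding transcript, the share of Sod1 was 93.8% and 97.6%, that of Sod2 3.93% and 2.36%, and that of Sod3 2.31% and 0.0659%. The direction of each share was the same with and without length, but the size depended on it, since Sod2 has coding transcripts of 451 and 5861 bases.

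Catalase and the selenium and thiol peroxidases made up the peroxide-removing genes. Cat, encoding the haem enzyme of peroxisomes, was at 265, 252 and 261 under the male label and at 219, 213 and 238 under the female label. Female 6 came closest to the other group. The log2 change was -0.22 (SE 0.06, limma adjusted p = 0.0128), the smallest of the 7 calls. The call was lost without female 4 (-0.20), without female 5 (-0.18) and under quantile normalization (-0.11).

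Gpx1, the glutathione peroxidase of cytosol and mitochondria and a selenoprotein, rose. The 250 bases before its start in RefSeq on GRCm38.p6 (chr9:108338830-108339079, plus strand) are shown because Gpx1 is the only gene among the 9 with a promoter entry that holds ACGTG, the hypoxia response element core, and the cells were hypoxic. That match lies 179 to 183 bases and a GCGTG match 143 to 147 bases before the start, both in capitals.

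Gpx1: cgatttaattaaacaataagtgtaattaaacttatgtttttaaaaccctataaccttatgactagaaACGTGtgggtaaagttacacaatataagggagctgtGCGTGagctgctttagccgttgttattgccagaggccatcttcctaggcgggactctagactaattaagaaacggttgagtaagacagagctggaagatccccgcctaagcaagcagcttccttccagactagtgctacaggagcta

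ACGTG was found in 16.6% of all promoter windows of this length, searched on both strands and in 1 of the 9 genes. Cells of both labels were hypoxic, and a link between this match and the change between labels was not tested. Gpx1 was at 182, 179.6 and 168 under the male label and at 306, 312 and 292 under the female label. The groups were far apart relative to their spread, with means of 177 ± 7.29 and 303 ± 10.3 (SD, n = 3). The log2 change was 0.77 (SE 0.06, limma adjusted p = 8.07e-06). The Gpx1 to Cat ratio of normalized reads was 0.688, 0.711 and 0.645 under the male label and 1.39, 1.46 and 1.23 under the female label. The order by reads was thus opposite between the labels, but the transcripts differ in length. Per kilobase of the longest coding transcript, mean Gpx1 was above Cat under both labels (165 against 99.3 for male, 283 against 85.5 for female). With the shortest, the order was opposite (271 against 333 for male, 464 against 287 for female).

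Gpx4, the selenoprotein that reduces lipid hydroperoxides in membranes and restrains ferroptosis, was at 264, 309 and 305 against 334, 321 and 332. Male 4 was again the lowest library, and male 5 and female 5 were near each other. The log2 difference was 0.17 with a 95% interval from 0.00 to 0.34 (limma adjusted p = 0.0638). It passed the threshold without male 5 (0.21) and under quantile normalization (0.27), and it shrank to 0.10 without male 4. Of its 50-base stretches, 61.7% also occur in the pseudogene Gpx4-ps2, so its value is uncertain. Gpx1 was 36.0% ± 2.72 of the pair per kilobase under the male label and 46.1% ± 1.24 under the female label (SD, n = 3).

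Prdx1, a cytosolic peroxiredoxin that thioredoxin keeps reduced, had the most reads of the 10 genes in every library. The 250 bases before its start in RefSeq on GRCm38.p6 (chr4:116685349-116685598, plus strand) are shown because Prdx1 and Sod1 are the 2 of 9 genes with a TGACNNNGC match. It lies 125 to 133 bases before the start, in capitals, and reads GCTGAGTCA on the strand printed.

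Prdx1: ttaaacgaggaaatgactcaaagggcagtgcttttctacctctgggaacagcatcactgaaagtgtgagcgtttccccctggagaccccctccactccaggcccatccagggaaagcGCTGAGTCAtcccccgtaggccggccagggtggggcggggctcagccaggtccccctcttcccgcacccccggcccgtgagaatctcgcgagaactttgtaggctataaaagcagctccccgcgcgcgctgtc

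The remaining windows hold GCGTG in Sod2 and Prdx2 and at 3 of the 4 start sites of Gpx4, which brings that motif to 7 of the 12 windows of 9 genes, against 28.2% of all windows. As the 4 windows of Gpx4 belong to 1 gene, these are not independent. None of the 3 motifs was found in the windows of Nox4, Cyba and Cat. Prdx1 was at 607, 652 and 691 under the male label and at 922, 969 and 942 under the female label. The lowest library labelled female was above the highest library labelled male. The means were 650.1 ± 42.4 and 944 ± 23.5 (SD, n = 3) and the log2 change was 0.54 (SE 0.07, limma adjusted p = 0.000152). Of its 50-base stretches, 10.9% are shared with other genes. The Prdx1 to Cat ratio of normalized reads was 2.29, 2.58 and 2.65 under the male label and 4.20, 4.54 and 3.97 under the female label.

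Prdx2, the related cytosolic peroxiredoxin, was at 236, 254 and 259.8 against 278, 278 and 270.1. Male 6 and female 6 lay close together, although the groups did not overlap. The log2 difference was 0.14 with a 95% interval from 0.01 to 0.28 (limma adjusted p = 0.0601), and it passed the threshold under quantile normalization (0.25). Other genes hold 23.8% of its 50-base stretches. Prdx1 was 64.6% ± 0.454 of the pair per kilobase under the male label and 70.7% ± 0.592 under the female label (SD, n = 3).

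**Figure D3:**
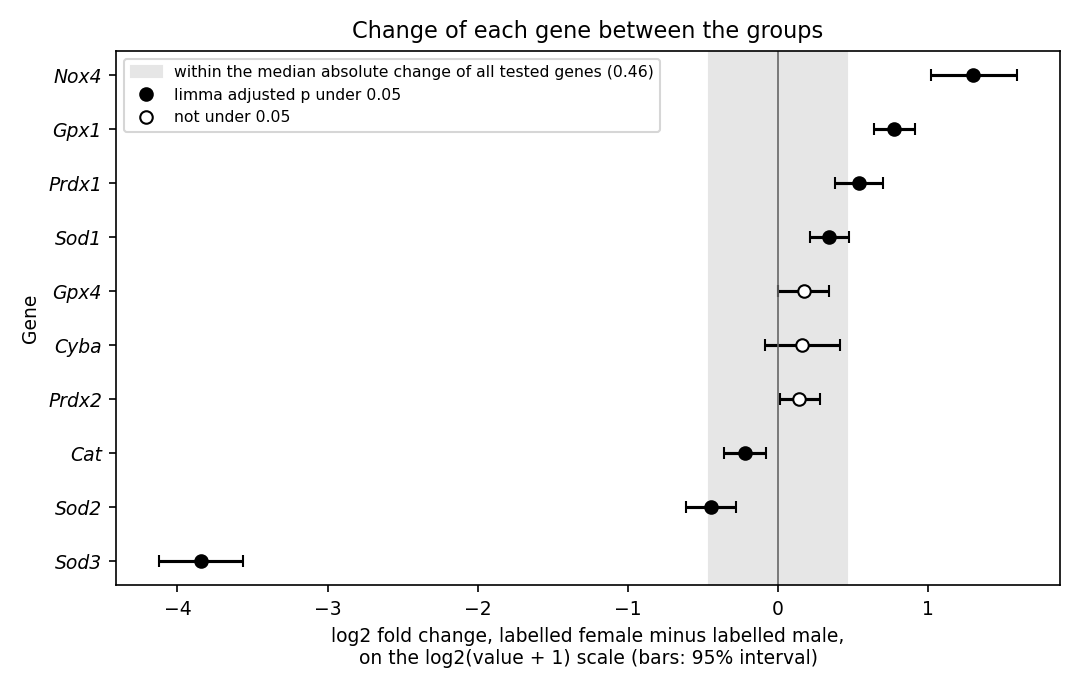
The log2 change of each gene, labelled female minus labelled male on the log2(value + 1) scale (horizontal axis), with its 95% interval and filled points where the limma adjusted p is under 0.05. Sod3 lies at -3.84 and Nox4 at 1.30, while the changes of Sod1, Sod2, Cat, Gpx4, Cyba and Prdx2 lie inside the grey band of the median size over all tested genes, 0.46.

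Levels were compared between genes as normalized reads per kilobase of the longest coding transcript. In the libraries labelled male, Gpx4 (294), Sod1 (286) and Prdx1 (283) led, and their ranges overlapped from each gene to the next. Gpx1 (165) and Prdx2 (155) overlapped as well, and Cat (99.3), Cyba (57.3), Sod2 (12.0), Sod3 (7.05) and Nox4 (2.94) followed without overlap. In the libraries labelled female the order began with Prdx1 (412), Sod1 (362), Gpx4 (331) and Gpx1 (283), each apart from the next. Prdx2 (171), Cat (85.5) and Cyba (63.8) came next, Sod2 (8.76) and Nox4 (7.63) overlapped, and Sod3 (0.246) was lowest. The order is a description and depends on which transcript the cells use.

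The authors' deposited table gives its own comparison of these libraries. There, 25.8% of the 13595 genes in the authors' deposited table had a false discovery rate under 0.05, and 2 of the 10 did, Sod3 (fold -28.6, rate 1.25e-08) and Gpx1 (fold 1.71, rate 0.00709). Nox4 (fold 2.59, rate 0.0526) and Prdx1 (fold 1.45, rate 0.084) were just outside in the authors' deposited table. The rates there were 0.295 for Sod1, 0.248 for Sod2 and 0.593 for Cat, in the authors' deposited table. The folds had the same direction for all 10 genes.

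Genes that supply or extend peroxide removal were then counted from lists of known pathway members, and each count is to be read against the 34.6% of all tested genes called higher and the 34.6% called lower. Whether a list differs from other genes was not tested. Of 8 other peroxidase genes tested, 3 were higher, 3 lower and 2 not called in the libraries labelled female. Prdx6, a peroxiredoxin that uses glutathione, rose from 155, 162 and 168 to 400.2, 403 and 385 (log2 change 1.29, SE 0.06, limma adjusted p = 3.97e-07). Gpx7, a peroxidase of the endoplasmic reticulum, fell from 39.6, 37.5 and 37.9 to 22.1, 21.4 and 24.3 (log2 change -0.74, SE 0.08, limma adjusted p = 4.99e-05). The summed level of the list was 867 to 910.2 under the male label and 1200.2 to 1214 in the others.

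The thioredoxin and glutaredoxin system, which reduces oxidised peroxiredoxins, had 7 of 15 genes higher, 5 lower and 3 not called. Txnrd1, the cytosolic thioredoxin reductase and a selenoprotein, rose from 311, 312 and 320.2 to 1696, 1725 and 1777 (log2 change 2.46, SE 0.06, limma adjusted p = 2.04e-08). Txnip, which encodes a protein that binds and inhibits thioredoxin, fell from 1337, 1005 and 865 to 258, 226 and 243 (log2 change -2.11, SE 0.14, limma adjusted p = 4.32e-06). For both genes the gap between groups exceeded the spread, although male 4 was the highest library for Txnip.

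The glutathione supply list had 6 of 9 tested genes higher, 1 lower and 2 not called. Its median log2 change was 0.74, against 0.01 over all tested genes. Chac1, among the higher (log2 change 1.75), and Chac2, the 1 lower (-0.64), encode enzymes that break glutathione down. The count, the median and the summed level therefore describe the list and do not measure supply. Gclm, the modifier subunit of the ligase that makes the glutathione precursor, rose from 76.4, 83.5 and 83.1 to 239, 230 and 258 (log2 change 1.57, SE 0.07, limma adjusted p = 3.49e-07). The summed level was 1419 to 1615 under the male label and 2388 to 2654 in the others.

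The list for copper, manganese and haem supply had 4 of 14 genes called higher, 8 lower and 2 not called. Some of its genes do not supply these cofactors of the dismutases and catalase. Hmox1, among the higher, and Hmox2, among the lower, encode enzymes that break down haem. Slc30a10, among the lower, encodes a manganese exporter. The count is therefore not a measure of supply. Atp7a, the copper pump that loads secreted copper enzymes such as SOD3, fell from 207, 165 and 166 to 95.5, 89.7 and 103 (log2 change -0.89, SE 0.10, limma adjusted p = 7.34e-05). Alas1, the first enzyme of haem synthesis, rose from 36.5, 33.4 and 36.3 to 60.8, 64.4 and 66.7 (log2 change 0.84, SE 0.07, limma adjusted p = 1.44e-05). Both genes had groups that did not overlap.

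Of 11 genes of selenoprotein synthesis, 4 were higher, 2 lower and 5 not called. Sephs2, which makes the selenium donor, rose from 6.55, 8.77 and 8.69 to 25.9, 24.5 and 23.6 (log2 change 1.52, SE 0.12, limma adjusted p = 9.40e-06). Sepp1, the secreted selenium carrier, fell from 243, 203 and 203 to 45.8, 49.6 and 58.8 (log2 change -2.06, SE 0.11, limma adjusted p = 9.95e-07).

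**Figure D4:**
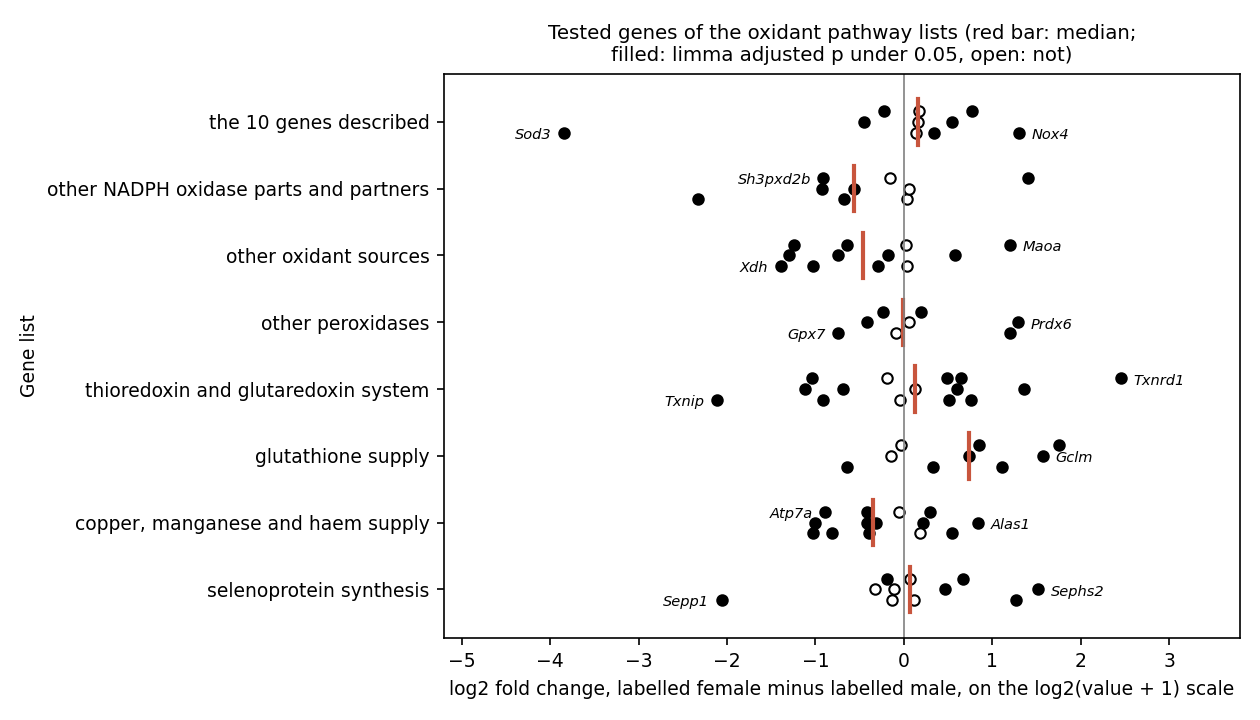
The log2 change on the log2(value + 1) scale (horizontal axis, labelled female minus labelled male) of every tested gene in the 10-gene group and in 7 pathway lists, filled where the limma adjusted p is under 0.05, with the list's median as a red bar. The median is 0.74 for glutathione supply and -0.56 for other NADPH oxidase parts, and each list has members on both sides of 0.

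The genes most like Nox4 and Sod3 over the 6 libraries were found by the Euclidean distance between log2(value + 1) profiles centred on their mean, among 8975 genes. For Nox4 they were Ncs1 (distance 0.13), Mob3a (0.14) and Cyr61 (0.17). Cyr61 encodes a secreted matricellular protein, and was at 85.6, 106 and 117 under the male label and at 269.7, 258 and 246 under the female label. For Sod3 they were Mfap2 (0.27), Mmp19 (0.29) and Col18a1 (0.30), all of which encode matrix proteins or a matrix protease. Mfap2, a microfibril component, was at 21.4, 28.9 and 27.4 against 0.54, 1.24 and 0.712. Col18a1, a basement membrane collagen, was at 1284, 1481 and 1585 against 88.1, 95.8 and 88.4. With 6 libraries in 2 groups, likeness mostly measures the size of the group difference.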

How the data were processed

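Poly(A) RNA was sequenced in 6 libraries. Bowtie2, RSEM, edgeR and mm39 are named, without roles or versions, per the submitters' processing notes. The signal deposited for each gene and library is a normalized read count, and whole reads were recovered for 100% of them by dividing by the worth of 1 read (tolerance 1e-06). The deposited score is the authors' signed fold, and each deposited p-value stands beside its false discovery rate, per the file header. Groups came from the labels, and 0 columns lacked a sample.

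With limma 3.58.1 in R 4.3.3, log2(value + 1) was fitted over the 12568 genes that reached 1 in 3 or more libraries, at an adjusted p of 0.05. Alternatives used edgeR 4.0.16, DESeq2 1.42.0 and voom on recovered reads, other scalings, filters and pseudocounts, a replicate block, and each library left out. The scripts were tested on simulated data. The members and lists were chosen with earlier results of these data known. All 10 members were named, and of each pathway list the largest called increase and decrease with a mean of at least 10. Transcript lengths and shared 50-base stretches came from GENCODE M21 and promoters from RefSeq, both on GRCm38, by symbol, so no coordinates were carried between builds. Promoters were found for 9 of 10 members. Protein sequences were not used here.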

Additional observations from a re-analysis of the deposited data

How the results depend on the processing

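Of 150 values of the 10 genes under 15 alternatives, 144 kept their direction and their side of the threshold, 3 lost and 3 gained a call, and 0 reversed. The 180 values of named pathway genes all kept both. The authors' deposited comparison is not among these alternatives, and only 2 of the 10 genes had a false discovery rate under 0.05 there. It had 3507 genes under that rate, where edgeR on recovered reads called 8975. The reason for this gap was not tested. Quantile normalization gave a log2 change of -0.11 for Cat, no longer called, and 0.27 for Gpx4 and 0.25 for Prdx2, both called, and shifted the median of all genes by 0.06. With 1 library left out, Cat ran from -0.26 to -0.18, Gpx4 from 0.10 to 0.21 and the number of called genes from 7373 to 9113. Male 5 decided the Gpx4 call, and female 4 and female 5 that of Cat. A log2 change of at least 1 as well as the call left 2589 genes, 1070 higher and 1519 lower, with 1 of the 10 higher (Nox4) and 1 lower (Sod3). It left 2 genes among other NADPH oxidase parts, 5 among other oxidant sources, 2 other peroxidases, 5 of the thioredoxin system, 3 of glutathione supply, 2 of copper, manganese and haem supply and 3 of selenoprotein synthesis. Requiring 10 reads in every library left 2 called genes among the other NADPH oxidase parts, since fewer were tested. Same-numbered libraries did not deviate together (correlations -0.09, -0.03 and -0.17), and the fit with the replicate block called 8314 genes and again 4 and 3 of the 10. With the shortest coding transcript, levels per kilobase averaged over 6 libraries were 33.5 for Nox4, 70.6 for Cyba, 135 for Sod2, 309.9 for Cat, 367 for Gpx1, 423 for Gpx4, 1305 for Prdx1 and 318 for Prdx2. Shares with that transcript, chosen after seeing the data, in the libraries labelled male and female were 63.7% and 76.0% for Sod1, 34.7% and 23.9% for Sod2, 40.5% and 50.9% for Gpx1 and 77.8% and 82.2% for Prdx1, and 1.57% for Sod3 in those labelled male. Without length the shares were 65.5% and 81.6% for Sod1, 25.1% and 18.1% for Sod2, 9.42% and 0.321% for Sod3, 72.2% and 77.4% for Prdx1 and 47.9% for Gpx1 in the libraries labelled female. Depth limits Sod3 in the libraries labelled female, where it rests on 17 to 27 reads.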

Other observations

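Beyond the genes described, 3 genes with oxidant roles were picked after their values were seen. Ero1l, the endoplasmic reticulum oxidase that releases peroxide during disulfide formation, had the most reads of the listed oxidant sources. It was at 8938, 5442 and 5844 under the male label and at 2486, 2649 and 2894 under the female label, a log2 change of -1.30 (SE 0.18, limma adjusted p = 0.000248). Male 4 was well above the other libraries of its label. Srxn1, which encodes sulfiredoxin, the enzyme that repairs over-oxidised peroxiredoxins such as PRDX1, was at 137, 155 and 170 against 397, 379.5 and 411 (log2 change 1.36, SE 0.08, limma adjusted p = 2.40e-06). Gpx3, the secreted glutathione peroxidase, was at 92.4, 104 and 99.2 against 230.3, 221 and 229 (log2 change 1.20, SE 0.06, limma adjusted p = 9.88e-07). For each of the 3 genes the groups did not overlap.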
